A study of Homo sapiens with 6 samples.

Results

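Peroxisomes are small organelles that shorten very long chain and branched fatty acids, begin the synthesis of ether lipids and destroy hydrogen peroxide. Their proteins are made in the cytosol and brought in by peroxins (the PEX genes), which recognise a targeting signal, dock at the membrane, release the cargo and pull the empty receptor back out. EPHX2, the soluble epoxide hydrolase, is itself found in part in peroxisomes, and the comparison asks how the other genes of the organelle stood when it was overexpressed in colon cancer cells. The 43 genes described here, of 38041 in the deposited table, are peroxins, transporters and other membrane proteins, enzymes of fatty acid oxidation, enzymes of ether lipid synthesis and other matrix enzymes, chosen by gene symbol with EPHX2 left out. All 43 symbols were found, each in 1 row.

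RNA was sequenced from HCT116 cells, an established human colorectal carcinoma line, stably transfected to overexpress EPHX2 (overEXP, 3 libraries) and from the negative control (NC, 3 libraries). The titles and the study's results describe NC as carrying the empty vector, and its methods name a negative control vector. Other labels call these cells untreated and normally cultured. According to the methods, cells infected with lentivirus were selected with puromycin. The study speaks of cell lines within each group, and the labels do not say whether the 3 samples of a group were derived or cultured separately, so p-values measure only the spread between these libraries. EPHX2 lay between 1.50 and 1.96 FPKM in NC and between 157 and 181 in overEXP, as the labels have it. FPKM is the number of fragments scaled to the length of the exons and to the mapped reads of the library, so levels of different genes are compared per length.

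All 6 markers of epithelial cells (EPCAM, KRT8, KRT18, KRT19, CDH1 and CLDN4) were read in every library, with a summed FPKM between 969 and 1397. One library stood apart. In overEXP replicate 2, 129 genes had an FPKM of at least 1 while every other library was under 0.1, against 0 to 7 such genes in the others, and 6 markers of differentiated colon summed to 283 FPKM there and to at most 0.211 elsewhere. Mitochondrially encoded RNA took 29.6% to 34.6% of summed FPKM in NC and 34.9% to 39.9% in overEXP, and the summed FPKM of overEXP libraries (288471 to 321825) was above that of NC libraries (277441 to 282322). The number of reads per library is unknown. In RNA from a whole culture, fewer cells that express a gene and less RNA per cell cannot be told apart.

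The peroxisomal genes differed little between overEXP and NC cells. Of the 43 genes, 40 had 1 FPKM or more in 3 or more libraries and entered the test, and these ranged in mean from 1.05 FPKM for PEX11G to 15.4 for IDH1. In limma on log2(FPKM + 1), adjusted by Benjamini-Hochberg over all 12281 genes tested, 0 of the 40 were higher and 1, PEX6, was lower in overEXP, while 4.23% of all genes tested passed (1.25% higher and 2.98% lower). At an unadjusted p under 0.05, 1 was higher (IDH1) and 4 were lower (PEX6, MPV17, ACAA1 and PEX5), which is 12.5% of the members, against 22.9% of all genes (6.55% higher and 16.4% lower). The median log2 fold change of the members was -0.06 and that of all genes tested was -0.05.

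**Figure D1:**
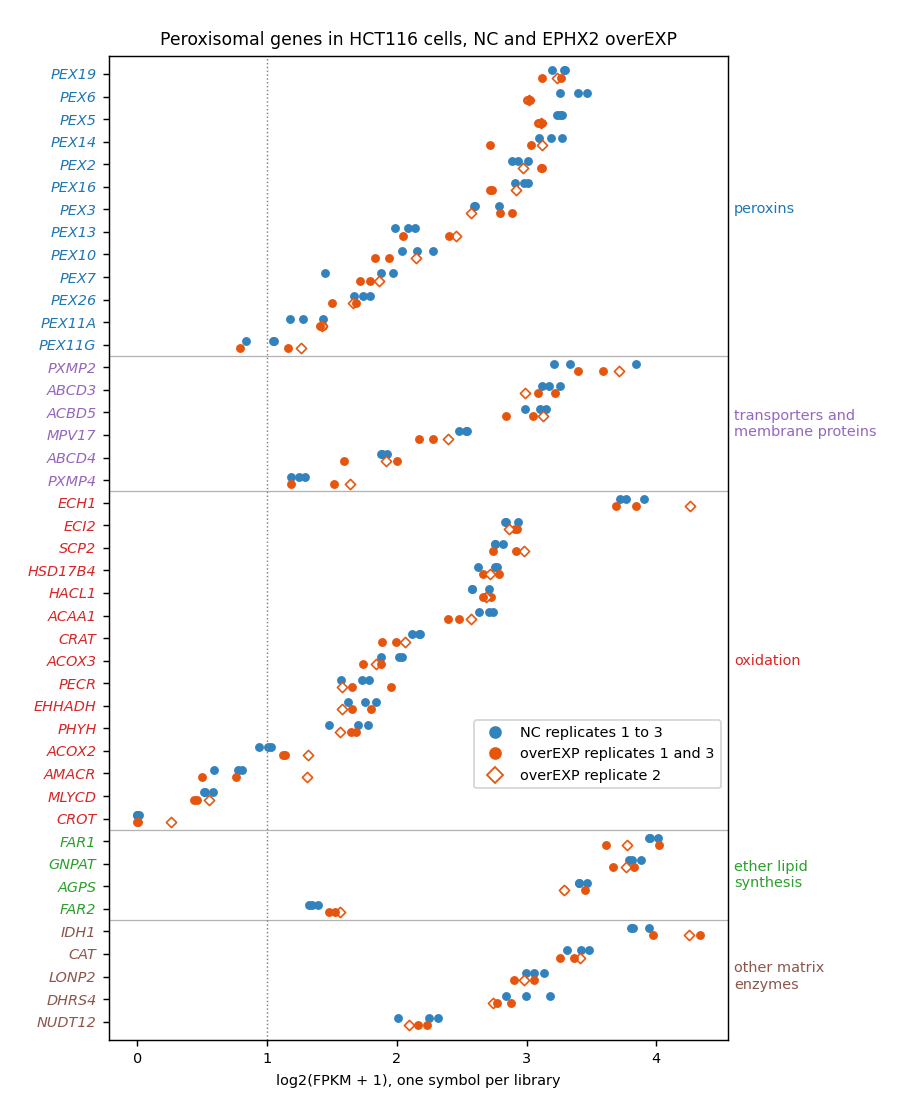
Level of each of the 43 peroxisomal genes as log2(FPKM + 1) on the horizontal axis, 1 symbol per library, with NC in blue, overEXP in orange and overEXP replicate 2 as an open diamond, and genes grouped by class on the vertical axis. The dotted line marks an FPKM of 1, and in most genes the 2 groups of symbols lie over each other. Of the 40 genes tested, 9 have groups that do not overlap, PEX5 and PEX6 among them. That is 22.5%, against 30.9% of all genes tested.

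On the log2(FPKM + 1) scale, with the libraries scaled as deposited, the precision was enough to bound most of these differences. For 36 of the 40 members the 95% interval of the log2 fold change from limma lay wholly between -0.5 and 0.5, where 74.3% of all genes tested had such an interval. No member had a log2 fold change above 0.5 in size, which 4.54% of all genes had. The pseudocount of 1 draws the fold changes of the less abundant members towards 0 and narrows their intervals. For ACOX2 the log2 fold change was 0.20, and it was 0.35 with a pseudocount of 0.1. The intervals between -0.5 and 0.5 were not counted at that pseudocount, where the counts of members that passed were the same (0 higher and 1 lower). Nor were they counted after another scaling of the libraries, and they do not cover the uncertainty of the scaling. Rescaling to TPM moved the median log2 fold change of the members from -0.06 to -0.16, so fewer intervals might lie within these bounds.

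The number of members with a negative log2 fold change moved with the scaling of the libraries, though most members kept their sign. As deposited, 23 of 40 members (57.5%) had a negative log2 fold change, and 61.6% of all genes did. After rescaling to TPM, which gives every library the same sum and lowers the median log2 fold change of all genes by 0.12, 32 of 40 were negative, and after median-of-ratios scaling or quantile normalization 19 of 40 were. The groups did not overlap for 9 members, 3 higher and 6 lower in overEXP, which is 22.5%, against 30.9% of all genes tested (9.23% higher and 21.7% lower). Of the 40, 20 had their lowest value in overEXP replicate 1, the case for 45.5% of all genes.

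**Figure D2:**
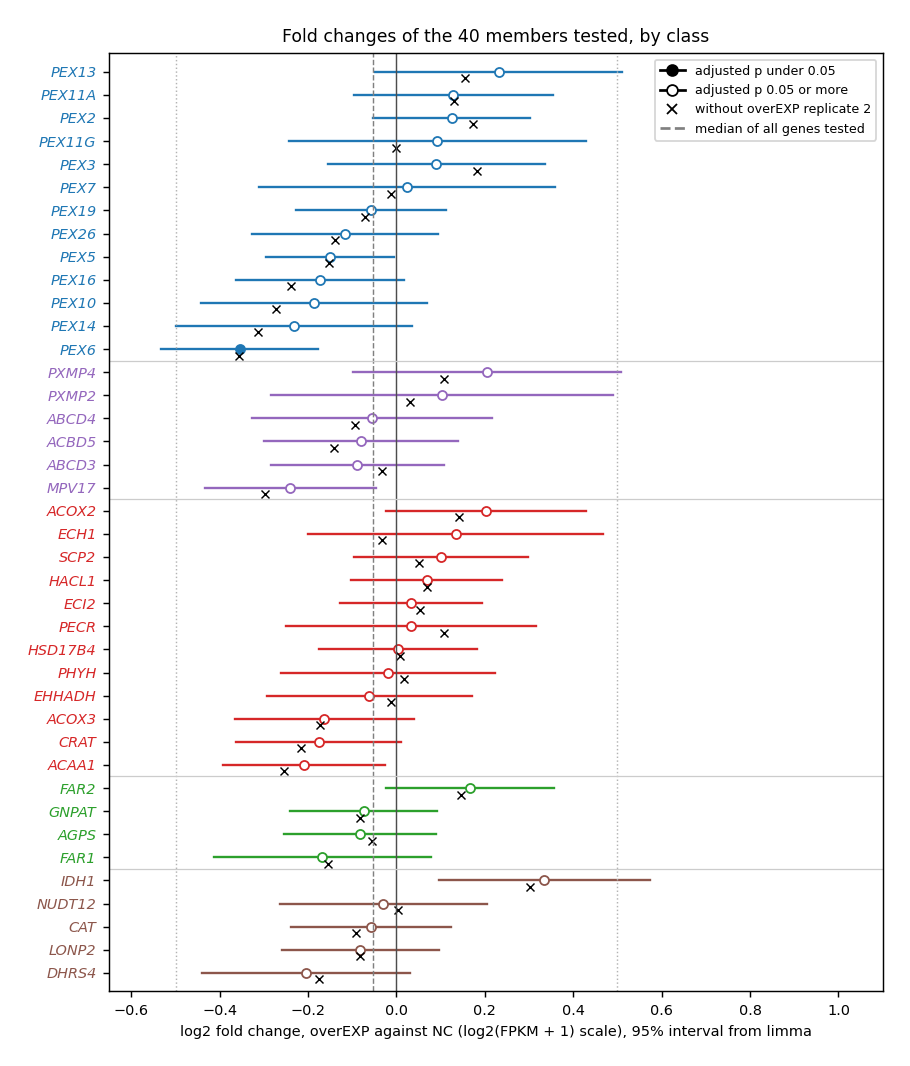
Log2 fold change of overEXP against NC on the log2(FPKM + 1) scale (horizontal axis) for the 40 members tested, as circles with the 95% interval from limma, coloured by class, with crosses for the value without overEXP replicate 2 and a dashed line at the median of all genes tested (-0.05). Only PEX6 is filled (adjusted p under 0.05), and only IDH1 lies to the right with an interval clear of 0.

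The import cycle begins with 2 soluble receptors. PEX5 binds the type 1 signal at the end of most matrix proteins, and PEX7 binds the type 2 signal near the start of a few. PEX5 (ENSG00000139197, chr12:7188685-7218574, plus strand, GRCh38) was read at 8.43, 8.56 and 8.65 FPKM in NC replicates 1 to 3 and at 7.50, 7.62 and 7.68 in overEXP replicates 1 to 3. The groups did not overlap and the spread within each was small, yet the log2 fold change of -0.15 (standard error 0.06, 95% interval -0.29 to -0.01) did not pass over all genes (adjusted p = 0.199 from limma). PEX7 was read at 2.68, 1.72 and 2.93 FPKM in NC and at 2.28, 2.64 and 2.46 in overEXP. All overEXP values lay between the NC values, with a log2 fold change of 0.02 (limma standard error 0.14, adjusted p = 0.935), which was -0.08 after rescaling to TPM.

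The receptor is returned to the cytosol by the ATPase PEX6, which works with a partner on the membrane anchor PEX26. PEX6 (ENSG00000124587, chr6:42963865-42979181, minus strand, 17 exons in its canonical transcript) was read at 10.1, 8.55 and 9.51 FPKM in NC replicates 1 to 3 and at 7.02, 7.10 and 7.16 in overEXP replicates 1 to 3. Every overEXP library was below every NC library, and the 3 overEXP values were closer to each other than the NC values were. The ratio of the mean FPKM was 0.757 and the log2 fold change was -0.36 (limma standard error 0.08, adjusted p = 0.0475). Without any single library the fold change did not pass, with adjusted p from 0.0675 to 0.176 and log2 fold changes from -0.41 to -0.31. Over all alternatives the adjusted p ran from 0.0143 to 0.176, and the log2 fold change was below 0 in every one. PEX26 was read at 2.17, 2.33 and 2.47 FPKM in NC and at 1.83, 2.16 and 2.22 in overEXP. The PEX26 groups overlapped and the fold change did not pass (log2 fold change -0.12, limma standard error 0.09, adjusted p = 0.477).

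**Figure D3:**
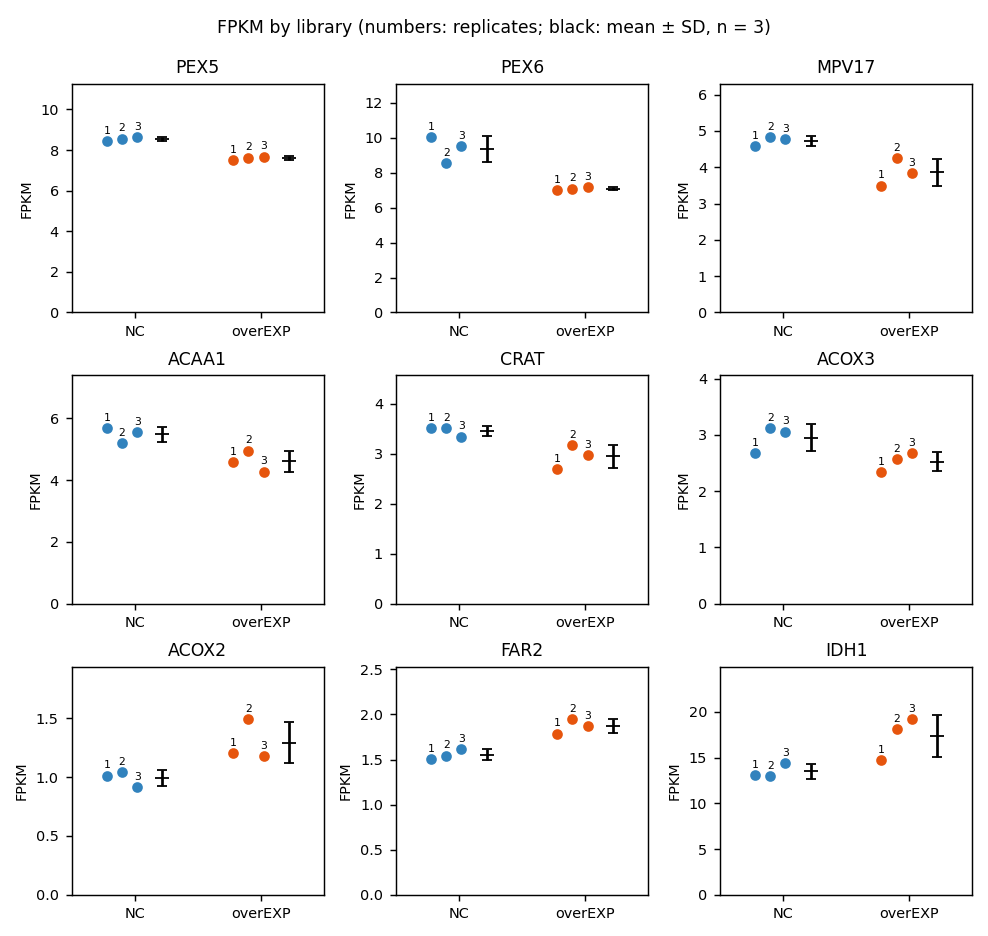
FPKM on the vertical axis for the 9 members whose groups did not overlap, with each library as a point numbered by replicate and the mean ± SD (n = 3) in black beside it. PEX5, PEX6, MPV17, ACAA1, CRAT and ACOX3 lie lower in overEXP and ACOX2, FAR2 and IDH1 higher, while PEX6 alone passed the test.

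The 250 bases before the RefSeq start of PEX6 and of PEX5 are shown because PEX5 is the receptor that PEX6 recycles, and these were the peroxins whose groups did not overlap. The sequences are RefSeq promoter sequences of GRCh38.p14, at chr6:42979182-42979431 on the minus strand and chr12:7188403-7188652 on the plus strand, where the PEX5 stretch ends 32 bases short of the GENCODE start given above, and capitals mark the letters CCGGAAG, the core that ETS factors recognise.
PEX6 promoter: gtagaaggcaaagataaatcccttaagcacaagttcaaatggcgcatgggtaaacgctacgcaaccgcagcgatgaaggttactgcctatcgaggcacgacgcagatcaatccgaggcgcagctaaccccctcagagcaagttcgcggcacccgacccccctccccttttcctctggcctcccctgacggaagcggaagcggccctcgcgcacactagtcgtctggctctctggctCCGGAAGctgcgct
PEX5 promoter: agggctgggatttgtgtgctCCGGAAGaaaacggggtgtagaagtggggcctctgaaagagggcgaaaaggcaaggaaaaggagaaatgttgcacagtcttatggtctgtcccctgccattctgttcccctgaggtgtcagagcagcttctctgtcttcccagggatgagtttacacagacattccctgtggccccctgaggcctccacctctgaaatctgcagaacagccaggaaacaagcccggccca
Of the 35 members with a promoter in the RefSeq table, 9 (25.7%) held CCGGAAG on either strand, and 17.6% of the 8821 promoters of genes tested did. The direct repeat that PPAR factors bind, AGGTCA again after 1 further base, was in 0 of the 35 and in 0.0227% of the promoters of genes tested, and a single AGGTCA, which lies within it, was in 2 of the 35 (5.71%) and in 7.99%. Matches were sought on both strands throughout. The GC box GGGCGG was in 25 of the 35 and in 70.0% of the promoters of genes tested. The members and the genes tested also had a like median GC content over these bases, of 64.4% and 65.6%.

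PEX13 and PEX14 form the docking site at the membrane where cargo-loaded PEX5 arrives, and their log2 fold changes had opposite signs. PEX13 was read at 3.40, 2.97 and 3.25 FPKM in NC replicates 1 to 3 and at 3.14, 4.48 and 4.29 in overEXP replicates 1 to 3 (log2 fold change 0.23, limma standard error 0.12, adjusted p = 0.297). PEX14 was read at 8.69, 7.56 and 8.14 FPKM in NC and at 5.58, 7.70 and 7.19 in overEXP (log2 fold change -0.23, limma standard error 0.11, adjusted p = 0.276). Neither passed, and both had their lowest value of the overEXP group in replicate 1. Within a library, where scaling cancels, the ratio of PEX14 to PEX13 was 2.55, 2.54 and 2.50 in NC and 1.77, 1.72 and 1.68 in overEXP. The ratio was thus 2.53 ± 0.03 (SD, n = 3) in NC and 1.72 ± 0.05 (SD, n = 3) in overEXP, with no overlap (two-sided exact permutation p = 0.1, which no 3 libraries against 3 can go below).

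This ratio was picked after its values were seen and is a description. Of 50 pairs of members that share a role, 17 had within-library ratios that did not overlap between the groups (34%), and of all 780 pairs of members tested 26.7% did. Parts of the exons overlap genes on the opposite strand, PUS10 over 4.96% of PEX13 and DFFA, at a mean of 16.5 FPKM, over 7.06% of PEX14. Strand use in counting is not given in the sources used here, so reads from these stretches cannot be told apart, and 18 of the 43 members share exon bases with another coding gene.

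**Figure D4:**
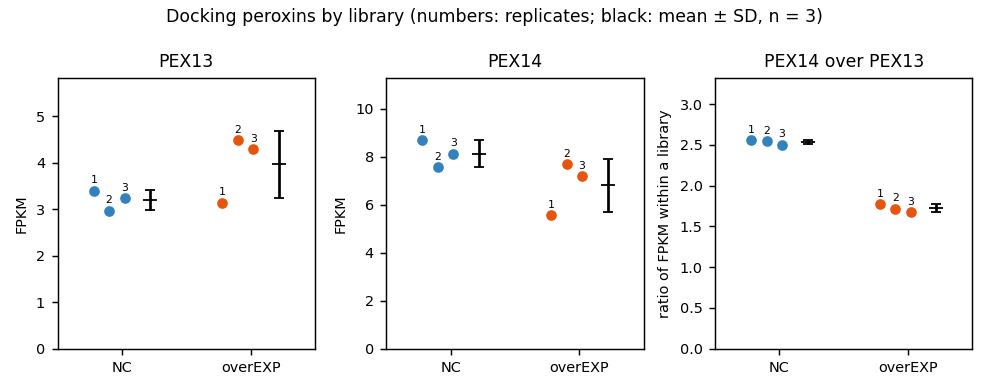
FPKM of PEX13 and PEX14 and the ratio of PEX14 to PEX13 within each library (vertical axes), with libraries as points numbered by replicate and the mean ± SD (n = 3) in black. The single genes overlap between NC and overEXP, while the ratio lies between 2.50 and 2.55 in NC and between 1.68 and 1.77 in overEXP.

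The other peroxins had log2 fold changes on both sides of 0. PEX2 and PEX10, RING proteins that tag PEX5 with ubiquitin, had log2 fold changes of 0.12 and -0.19. For PEX10, 39.1% of the exon bases overlap RER1 on the opposite strand, which was read at a mean of 14.6 FPKM. PEX3, PEX16 and PEX19, which place proteins into the peroxisomal membrane, had log2 fold changes of 0.09, -0.17 and -0.06. PEX11A and PEX11G, which promote elongation and division, were the least abundant peroxins (1.57 and 1.05 FPKM on average) and had log2 fold changes of 0.13 and 0.09. None of these 7 passed (adjusted p from 0.254 to 0.730 from limma). Of the 13 peroxins, 0 were higher and 1 was lower, where 4.23% of all genes tested passed. The median log2 fold change of the 13 was -0.06. Without overEXP replicate 2 it was -0.07 and none of the 13 passed, with 4 lower at an unadjusted p under 0.05, where 13.7% of all genes tested were lower at that p and 19.3% passed it in either direction.

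Among the 6 transporters and membrane proteins, 0 passed in either direction, where 4.23% of all genes tested passed. ABCD3, which carries branched-chain acyl-CoAs and bile acid intermediates into peroxisomes, was read at 7.70, 8.03 and 8.58 FPKM in NC replicates 1 to 3 and at 7.50, 6.92 and 8.30 in overEXP replicates 1 to 3. The groups overlapped (log2 fold change -0.09, limma standard error 0.08, adjusted p = 0.556). MPV17, a small membrane protein now placed in the inner mitochondrial membrane, was read at 4.58, 4.83 and 4.78 FPKM in NC and at 3.49, 4.25 and 3.85 in overEXP. Every overEXP value was below every NC value, and the fold change did not pass (log2 fold change -0.24, limma standard error 0.08, adjusted p = 0.139). ABCD4, known as a lysosomal cobalamin transporter, the channel protein PXMP2, the membrane protein PXMP4 and ACBD5, which tethers peroxisomes to the endoplasmic reticulum, had log2 fold changes from -0.08 to 0.21 and overlapping groups. PXMP2 had the widest spread of the 6 in NC (13.3, 9.07 and 8.29 FPKM), and its interval ran from -0.28 to 0.49.

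Of the 15 enzymes of oxidation, 12 were tested and 0 passed, where 4.23% of all genes tested did. Oxidation of a fatty acyl-CoA begins with an oxidase that yields hydrogen peroxide, and ACOX2 and ACOX3 are the oxidases for branched substrates. ACOX2 was read at 1.01, 1.04 and 0.913 FPKM in NC replicates 1 to 3 and at 1.20, 1.49 and 1.18 in overEXP replicates 1 to 3. The groups did not overlap (log2 fold change 0.20, limma standard error 0.10, adjusted p = 0.264), and the log2 fold change was 0.14 without overEXP replicate 2. ACOX3, which had 2.95 ± 0.24 FPKM (SD, n = 3) in NC and 2.53 ± 0.17 (SD, n = 3) in overEXP, had a log2 fold change of -0.16 (adjusted p = 0.309 from limma). The ratio of ACOX3 to ACOX2 within a library was 2.99 ± 0.36 (SD, n = 3) in NC and 1.98 ± 0.28 (SD, n = 3) in overEXP. Its lack of overlap follows from the genes themselves, since each alone had groups without overlap, in opposite directions. This ratio too was picked after its values were seen.

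The next steps are carried out by the bifunctional enzymes HSD17B4 and EHHADH and the thiolases ACAA1 and SCP2. HSD17B4 was read at 5.18, 5.82 and 5.75 FPKM in NC replicates 1 to 3 and at 5.34, 5.56 and 5.89 in overEXP replicates 1 to 3. Its log2 fold change was 0.00 (limma standard error 0.08, 95% interval -0.17 to 0.18, adjusted p = 0.983), and it was -0.12 after rescaling to TPM. ACAA1 was read at 5.68, 5.20 and 5.54 FPKM in NC and at 4.59, 4.95 and 4.27 in overEXP. The ACAA1 groups did not overlap, and the fold change did not pass (log2 fold change -0.21, limma standard error 0.08, adjusted p = 0.164). The other thiolase, SCP2, had a log2 fold change of 0.10 and EHHADH one of -0.06, with overlapping groups.

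The 3 auxiliary enzymes tested, which act on double bonds, had log2 fold changes above 0, and none passed. ECH1, a dienoyl-CoA isomerase and among the 3 most abundant members, was read at 14.0, 12.2 and 12.6 FPKM in NC replicates 1 to 3 and at 11.9, 18.2 and 13.3 in overEXP replicates 1 to 3. Only overEXP replicate 2 was above all NC libraries, and the log2 fold change of 0.13 (limma standard error 0.14, adjusted p = 0.608) became -0.03 without it. The enoyl-CoA isomerase ECI2 and the reductase PECR had log2 fold changes of 0.03 and 0.03, which were -0.09 and -0.06 after rescaling to TPM. PHYH and HACL1, which remove 1 carbon from branched chains by alpha-oxidation, had log2 fold changes of -0.02 and 0.07. The carnitine acyltransferase CRAT was read at 3.51, 3.52 and 3.35 FPKM in NC and at 2.70, 3.17 and 2.98 in overEXP, without overlap (log2 fold change -0.18, limma standard error 0.08, adjusted p = 0.241). The median log2 fold change of the 12 oxidation enzymes tested was 0.02, and 0.01 without overEXP replicate 2.

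The 3 members that were not tested are also oxidation enzymes. AMACR, the racemase that prepares branched chains, was read at 0.714, 0.754 and 0.510 FPKM in NC replicates 1 to 3 and at 0.415, 1.48 and 0.696 in overEXP replicates 1 to 3. Of the exon bases of AMACR, 61.4% are shared with the readthrough gene C1QTNF3-AMACR on the same strand, the largest such share among the members, so reads may be split between them. CROT, which makes carnitine esters of medium-chain acyl groups for export, was listed at 0, 0 and 0.00745 FPKM in NC and at 0.00510, 0.194 and 0 in overEXP. Both were highest in overEXP replicate 2, and without it neither group separated from the other. Among the members tested 17.5% were highest in that library, and among all genes tested 13.6% were. MLYCD, malonyl-CoA decarboxylase, lay between 0.356 and 0.495 FPKM in all libraries. In overEXP replicate 2 the 6 markers of differentiated colon were all at 6.25 FPKM or more (CEACAM5 at 123), and all were under 0.1 in every other library. Their part in the AMACR, CROT and ECH1 values was not tested.

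**Figure D5:**
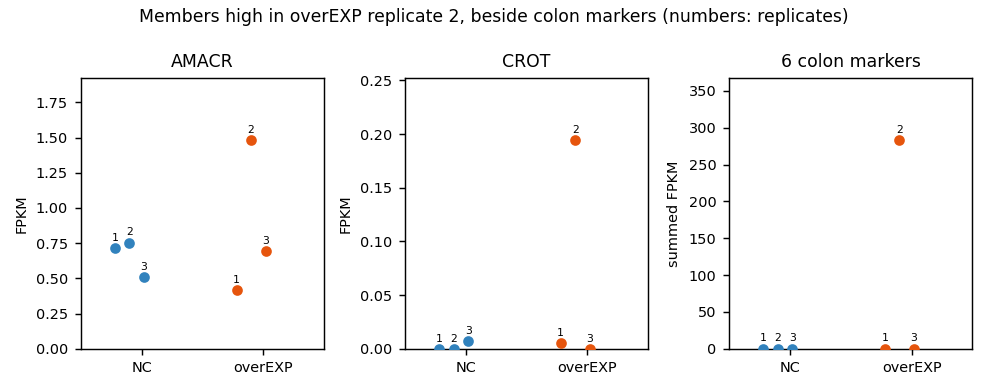
FPKM of AMACR and CROT and the summed FPKM of 6 differentiated colon markers (vertical axes), each library as a point numbered by replicate. Replicate 2 of overEXP is the highest point in all 3 panels, at 1.48, 0.194 and 283 FPKM.

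Ether lipid synthesis, the route to plasmalogens, starts inside peroxisomes with GNPAT and AGPS and uses fatty alcohols from FAR1 or FAR2. None of the 4 passed, where 4.23% of all genes tested did, so few genes say little about the class. GNPAT, FAR1 and AGPS were among the more abundant members. GNPAT was read at 13.8, 12.8 and 13.1 FPKM in NC replicates 1 to 3 and at 11.7, 12.6 and 13.2 in overEXP replicates 1 to 3 (log2 fold change -0.07, limma standard error 0.07, adjusted p = 0.560). AGPS was read at 10.1, 9.59 and 9.58 FPKM in NC and at 8.76, 8.78 and 9.95 in overEXP (log2 fold change -0.08, limma standard error 0.07, adjusted p = 0.536). The groups overlapped for both, and the ratio of GNPAT to AGPS within a library was 1.36 ± 0.02 (SD, n = 3) in NC and 1.37 ± 0.06 (SD, n = 3) in overEXP. FAR1 was read at 15.1, 14.5 and 14.4 FPKM in NC and at 11.2, 12.7 and 15.2 in overEXP (log2 fold change -0.17, limma standard error 0.11, adjusted p = 0.382). FAR2, the less abundant reductase, was read at 1.50, 1.54 and 1.62 FPKM in NC and at 1.79, 1.95 and 1.87 in overEXP, and FAR2 alone of the 4 had groups that did not overlap (log2 fold change 0.17, limma standard error 0.08, adjusted p = 0.270).

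Other matrix enzymes included the most abundant member and the largest positive fold change, both IDH1, which makes NADPH in the cytosol and in peroxisomes. IDH1 (ENSG00000138413, chr2:208236229-208266074, minus strand) was read at 13.1, 13.0 and 14.4 FPKM in NC replicates 1 to 3 and at 14.8, 18.1 and 19.2 in overEXP replicates 1 to 3. Every overEXP library was above every NC library, with overEXP replicate 1 only slightly so. The ratio of mean FPKM was 1.29, and the log2 fold change of 0.33 (standard error 0.10, 95% interval 0.10 to 0.57) did not pass over all genes (adjusted p = 0.105 from limma). It passed with median-of-ratios scaling (log2 fold change 0.40), without overEXP replicate 1 (0.44) and with array weights (0.40), at limma adjusted p of 0.0329, 0.0384 and 0.0059, and over all alternatives the adjusted p ran from 0.0059 to 0.329. Catalase (CAT), which breaks down hydrogen peroxide, was read at 9.67, 10.1 and 8.93 FPKM in NC and at 8.54, 9.65 and 9.31 in overEXP. The groups overlapped (log2 fold change -0.06, standard error 0.08, 95% interval -0.24 to 0.12, adjusted p = 0.690 from limma), and the sign turned after median-of-ratios scaling (0.00) and quantile normalization (0.01).

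The remaining matrix enzymes were the reductase DHRS4, the protease LONP2 and NUDT12, a hydrolase of nicotinamide dinucleotides, with log2 fold changes of -0.20, -0.08 and -0.03. DHRS4 has near-identical copies beside it in the genome, and its reads may be shared with them. The summed FPKM of all 43 members was 239 ± 6.40 (SD, n = 3) in NC and 234 ± 14.5 (SD, n = 3) in overEXP (exact permutation test, two-sided, p = 0.8). As a share of all FPKM it was 0.0855% ± 0.0016 in NC and 0.0761% ± 0.0082 in overEXP (p = 0.1 by the same exact test, n = 3 per group), and as a share of FPKM outside mitochondrially encoded genes it was 0.127% ± 0.004 and 0.122% ± 0.011 (exact p = 0.8, n = 3 per group).

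Lists that do not hold the members covered other genes linked to peroxisomes, picked by symbol. Where in the cell their proteins lie was not examined, and they need not be particular to the organelle. Of 27 genes tested from the list of other peroxisome genes, 2 were higher and 1 was lower, where 4.23% of all genes passed (1.25% higher and 2.98% lower). PRDX5, a peroxiredoxin that reduces peroxides, rose from 197 ± 26.3 FPKM (SD, n = 3) in NC to 353 ± 46.8 (SD, n = 3) in overEXP, with 0.84 as its log2 fold change (limma standard error 0.13, adjusted p = 0.0228). The acyl-CoA synthetase ACSL3 rose from 13.5 ± 0.48 FPKM (SD, n = 3) to 18.9 ± 1.20 (SD, n = 3), with 0.46 as its log2 fold change (limma standard error 0.07, adjusted p = 0.0215). SLC27A4, which activates and takes up long fatty acids, fell from 19.4 ± 1.33 FPKM (SD, n = 3) to 14.8 ± 0.38 (SD, n = 3), with -0.37 as its log2 fold change (limma standard error 0.07, adjusted p = 0.0376). The NC and overEXP libraries did not overlap for any of these 3 genes. They are named because they passed the test in the same libraries, so this adds no support, and 30.9% of all genes tested had no overlap.

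In mitochondrial beta-oxidation, 0 of 20 genes were higher and 1 was lower, SLC25A20, the carrier of acylcarnitines into mitochondria. Over all genes tested, 1.25% were higher and 2.98% lower. SLC25A20 fell from 6.13 ± 0.69 FPKM (SD, n = 3) to 3.99 ± 0.31 (SD, n = 3), with -0.51 as its log2 fold change (limma standard error 0.10, adjusted p = 0.0357). Of 14 genes of peroxisome division, tethering and turnover, 0 passed in limma and 4 had an unadjusted p under 0.05, and of 9 nuclear receptors and coactivators of peroxisomal genes 0 passed and 3 did so unadjusted, where 22.9% of all genes did. None of the 4 genes that passed in these lists did so without overEXP replicate 2 (limma adjusted p from 0.0699 to 0.0946), where 0.871% of all genes passed, nor without NC replicate 1, 2 or 3. SLC27A4 also did not pass without overEXP replicate 1 or 3, and SLC25A20 did not without overEXP replicate 3. With the replicate number as a block, SLC27A4 (limma adjusted p = 0.0612) and SLC25A20 (0.0558) did not pass, while PRDX5 (0.0159) and ACSL3 (0.0353) did. After rescaling to TPM, ACSL3 did not pass (limma adjusted p = 0.0870). SLC25A20 did not after median-of-ratios scaling (0.0558) or quantile normalization (0.0518), while PRDX5 and SLC27A4 passed with every scaling. SLC27A4 did not pass in limma without trend (0.0538), and none of the 4 passed without the filter on low values.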

How the data were processed

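The authors filtered reads with FastQC, used HISAT2 (version 2.0.4 by the submitters' notes) for mapping to GRCh38 and StringTie for assembly, joined the samples' transcripts with gffcompare, and deposited FPKM per gene as estimated by StringTie. The table's own fold changes, p-values and q-values were not used. Read counts were not used here, so depth is unknown and precision is known only from the 3 libraries of each group.

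The test took genes with 1 FPKM or more in 3 or more libraries, and was made on log2(FPKM + 1) with limma 3.58.1 (R 4.3.3), with a variance trend, two-sided, at a Benjamini-Hochberg adjusted p of 0.05. The procedure was tested on simulated data, on the log2(FPKM + 1) scale. Changes were put only into genes above a minimum NC level, which was higher than the 1 FPKM of the filter. Recovery in the least abundant members, such as PEX11G and ACOX2, is therefore unknown. The procedure recovered 16% of 1.25-fold changes, 64% of 1.50-fold changes and 86% of 2.00-fold changes, and 7.09% of its calls were false. Not passing thus does not exclude a small change in a member. The members and lists were chosen with earlier results of these data known. Values in every library are given for members that passed, those without overlap and a log2 fold change above 0.2, the 3 most abundant, and PEX5, PEX6, PEX7, PEX26, CAT, HSD17B4, ACAA1, ABCD3, AGPS, GNPAT, FAR1 and IDH1. PEX13, PEX14, CRAT, FAR2, AMACR and CROT were added after their values were seen, as were the group means of ACOX3 and the NC values of PXMP2. Genes were placed with GENCODE 44. The planned search for targeting signals in proteins was not run. Alternatives were another pseudocount, filter, scaling or variance model, a replicate block and leaving out each library.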

Additional observations from a re-analysis of the deposited data

How the results depend on the processing

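Of 17 alternatives, the number of members higher in overEXP was 0 in 14, and it was 1 after median-of-ratios scaling, 7 with array weights and 0 to 1 without single libraries. The number lower, 1 as reported, was 0 without the filter on low values, after rescaling without mitochondrially encoded genes, after median-of-ratios scaling, in limma without trend and with the replicate block, 2 with array weights, and 0 without any single library. Over all genes, 154 were higher and 366 lower. The numbers were 3 and 2 without the filter, 95 and 866 after rescaling to TPM, 333 and 356 after median-of-ratios scaling, 330 and 395 after quantile normalization, 1243 and 2155 with array weights, and 23 to 199 and 21 to 383 without single libraries. With array weights, NC replicate 2 and overEXP replicate 2 received weights of 3.51 and 2.93 and the others 0.271 to 1.38, and overEXP replicate 2 is the library that stood apart. The median log2 fold change of the members, -0.06, was -0.16 after rescaling to TPM, 0.00 after median-of-ratios scaling (0.0029) and quantile normalization (0.0042), and -0.084 to -0.013 without single libraries. The causes were not tested.

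The libraries were taken to share only a number, since nothing in the labels says that equal numbers mark a shared culture or day. Deviations from the group means correlated at 0.358 and 0.367 for replicates 1 and 3, each the highest for both libraries, and at -0.0156 for replicate 2. With the replicate block, 118 genes were higher and 213 lower, and PEX6 did not pass (adjusted p = 0.0696 from limma). For overEXP replicate 2, the library that stood apart, the highest correlation was with NC replicate 3 (0.201). These correlations do not settle whether the libraries were paired.

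Of the 40 members, the sign turned for 9 after rescaling to TPM, 4 after median-of-ratios scaling, 4 after quantile normalization, 4 with array weights, 1 after rescaling without mitochondrially encoded genes and 1 to 5 without single libraries. Among the members given in full, signs turned for CAT after median-of-ratios scaling (0.0031) and quantile normalization (0.0056), for PEX7 after rescaling to TPM (-0.076), and for HSD17B4 after rescaling to TPM (-0.12) or without mitochondrially encoded genes (-0.017) and with array weights (-0.031). Without single libraries the log2 fold change ran from -0.032 (without overEXP replicate 2) to 0.25 for ECH1, from -0.042 to 0.032 for HSD17B4 (below 0 without NC replicate 1, and at -0.028 without overEXP replicate 3) and from -0.14 to 0.13 for PEX7 (below 0 without NC replicate 2, and at -0.013 without overEXP replicate 2). FPKM without read counts allows no counting error, so the weakest members, such as CROT and MLYCD, have no stated depth.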
